A study of Mus musculus with 4 samples.

Results

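Ltf/Camp-stage immature neutrophils were the cells of these libraries that carried many transcripts of the secondary-granule genes Ltf, Camp and Ngp and few of the primary-granule genes that precede them. The members were chosen by measured values. A called cell was a member when Ltf, Camp and Ngp together made up at least 1% of its unique molecular identifiers (UMIs, each a tag that marks 1 captured transcript), Elane, Mpo and Prtn3 together under 0.2%, and Adipoq at most 1 UMI. By this rule 1116 of 9795 called cells were members, 11.4% of all. The cells came from the femurs of Cxcl12-iCreER; R26R(tdTomato/+) mice, in which tamoxifen turns on the red reporter tdTomato in cells that use the transgene. All mice had received tamoxifen 7 days before surgery, and all cells were taken 7 days after it. ABL libraries were made from the femur whose marrow had been mechanically ablated, and CONT libraries from the uninjured contralateral femur, so the injury is the only labelled difference. Each condition had 2 biological replicates, replicate 1 (pooled from several mice) on Chromium v2 chemistry and replicate 2 on v3, so replicate and chemistry cannot be told apart. The iCreER sits in a bacterial artificial chromosome with Cxcl12 regulatory sequence and marks reticular stromal cells of the marrow. Cells were sorted for tdTomato before capture. The libraries are named CONT1, ABL1, CONT2 and ABL2 by condition and replicate, and values given as 4 numbers follow that order. They held 44784072, 22889380, 40486876 and 41536563 UMIs, and the summed members 5559443, 1760578, 1423026 and 1455738. In such sorted libraries a lower share of neutrophils and a higher share of other cells cannot be told apart.

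Neutrophils arise in the marrow through a fixed order of stages. Promyelocytes fill primary granules with elastase and myeloperoxidase, myelocytes and metamyelocytes then fill secondary (specific) granules with lactoferrin, the cathelicidin CAMP and neutrophilic granule protein, and band and segmented cells make gelatinase granules and secretory vesicles before they leave for the blood. Division ends at the myelocyte stage. The transcription factor C/EBPε drives the secondary-granule genes, while the chemokine CXCL12, made by reticular cells, holds neutrophils in the marrow through the receptor CXCR4, and CXCR2 favors their release.

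The genes that define the stage lie close together. In the GRCm38/mm10 genome, Camp (chr9:109847379-109849617, minus strand), Ngp (chr9:110419747-110423012, plus strand) and Ltf (chr9:111019271-111042767, plus strand) fell within 1.195 Mb of chromosome 9. Of the 31 protein-coding genes that the GENCODE annotation places in that interval, these 3 alone reached 1000 CPM (UMIs of a gene scaled to a fixed total of UMIs, the usual counts-per-total unit) in the members of all 4 libraries, and 24 stayed under 50 CPM in all 4. Upstream sequences are shown for the 3 genes that set membership (Camp, Ngp and Ltf), for Fcnb, which was highest in the same members as Camp and Ngp, and for Retnlg, which was highest in the members with least of them. They are RefSeq promoter windows of GRCm38.p6 in the direction of transcription, cut where the GENCODE gene begins, with capitals at matches to the C/EBP-type letters TTGCNNAA on either strand. Fcnb is at chr2:28084886-28085128 (minus), Camp at chr9:109849618-109849706 (minus), Ngp at chr9:110419558-110419746 (plus), Ltf at chr9:111019042-111019270 (plus) and Retnlg at chr16:48872358-48872607 (plus).
Fcnb: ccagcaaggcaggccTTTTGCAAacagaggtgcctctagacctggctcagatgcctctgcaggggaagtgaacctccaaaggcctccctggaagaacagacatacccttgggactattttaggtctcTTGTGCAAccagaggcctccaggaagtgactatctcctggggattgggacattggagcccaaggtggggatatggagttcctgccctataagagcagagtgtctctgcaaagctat
Camp: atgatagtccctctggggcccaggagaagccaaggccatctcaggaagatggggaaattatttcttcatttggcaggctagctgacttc
Ngp: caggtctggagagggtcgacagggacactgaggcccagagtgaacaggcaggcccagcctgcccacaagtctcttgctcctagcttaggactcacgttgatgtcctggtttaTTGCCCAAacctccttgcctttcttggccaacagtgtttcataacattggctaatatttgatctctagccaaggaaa
Ltf: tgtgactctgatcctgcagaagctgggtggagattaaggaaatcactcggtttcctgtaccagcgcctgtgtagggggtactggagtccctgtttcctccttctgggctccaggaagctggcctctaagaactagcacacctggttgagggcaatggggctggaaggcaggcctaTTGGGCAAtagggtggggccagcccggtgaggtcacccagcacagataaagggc
Retnlg: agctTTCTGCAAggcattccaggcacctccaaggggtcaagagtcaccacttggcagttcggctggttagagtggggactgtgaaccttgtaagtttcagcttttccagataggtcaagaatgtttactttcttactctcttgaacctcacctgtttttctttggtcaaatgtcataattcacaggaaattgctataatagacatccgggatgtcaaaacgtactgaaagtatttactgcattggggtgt
Over the 250 bases before the RefSeq start, Ltf held 1 match (TTGGGCAA), which began 75 bases before that start. Ngp held 2, at 138 bases (TTGCCCAA) and at 11 bases (TTGGGCAA), the second of which lies inside the GENCODE gene and is not shown. Fcnb held 2 and Retnlg 1, and Camp held none, though 161 of its 250 bases lie inside the GENCODE gene. Of other granulocyte genes searched but not shown, Chil3, which was highest in the same members as Fcnb, held none, and Lcn2 and Mmp8 held 1 each. All 250 bases searched for Lcn2 lie inside the GENCODE gene. Of 32807 RefSeq promoters, 9.57% held at least 1 such match and 0.573% at least 2. A match of letters is a description and not a binding site.

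The 4 libraries differed widely in how many members they held. CONT1 held 718 members among 3419 called cells (21.0%, exact 95% binomial interval 19.6 to 22.4). ABL1 held 208 among 1438 (14.5%, 12.7 to 16.4). CONT2 held 68 among 2397 (2.84%, 2.21 to 3.58), and ABL2 held 122 among 2541 (4.80%, 4.0 to 5.71). The share was thus lower after ablation in replicate 1 (ABL minus CONT -6.54 percentage points) and higher in replicate 2 (1.96 points). With 2 libraries per condition no exact two-sided test can give a p under 0.33, so shares were not tested, and the intervals cover counting error only. The denominators also differed, since reticular cells (Adipoq at least 2 UMIs, Cxcl12 at least 0.5% of UMIs) were 79.9% of called cells in CONT2 but 11.5% in ABL2. Among called cells with at most 1 Adipoq UMI and Cxcl12 under 0.5% of UMIs, members were 35.9%, 22.9%, 17.7% and 5.58%. With that denominator the direction in replicate 2 turned, and ABL was lower in both replicates (-13.0 and -12.1 points). It held 1998, 907, 384 and 2188 cells, and it leaves out reticular cells but not other stromal cells.

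Set against other granulocytes, members made up a more even share. Early precursors were defined by Elane, Mpo and Prtn3 at 0.2% of UMIs or more with at most 1 Adipoq UMI, and mature neutrophils by S100a8 and S100a9 at 2% or more with Retnlg and Stfa2l1 at 0.1% or more and, as for members, few primary-granule and Adipoq UMIs, but an Ltf, Camp and Ngp share under 1%. For early precursors no limit was set on the Ltf, Camp and Ngp share. Of called cells with Elane, Mpo and Prtn3 at 0.2% or more, whatever their Adipoq count, 53, 6, 4 and 9 also passed that 1% threshold. Of the 996, 291, 129 and 174 granulocytes of the 3 stages, members were 72.1%, 71.5%, 52.7% and 70.1%. CONT2 stood apart by its mature cells, which made up 41.9% of its granulocytes, against 16.6%, 21.6% and 13.2% in CONT1, ABL1 and ABL2.

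**Figure D1:**
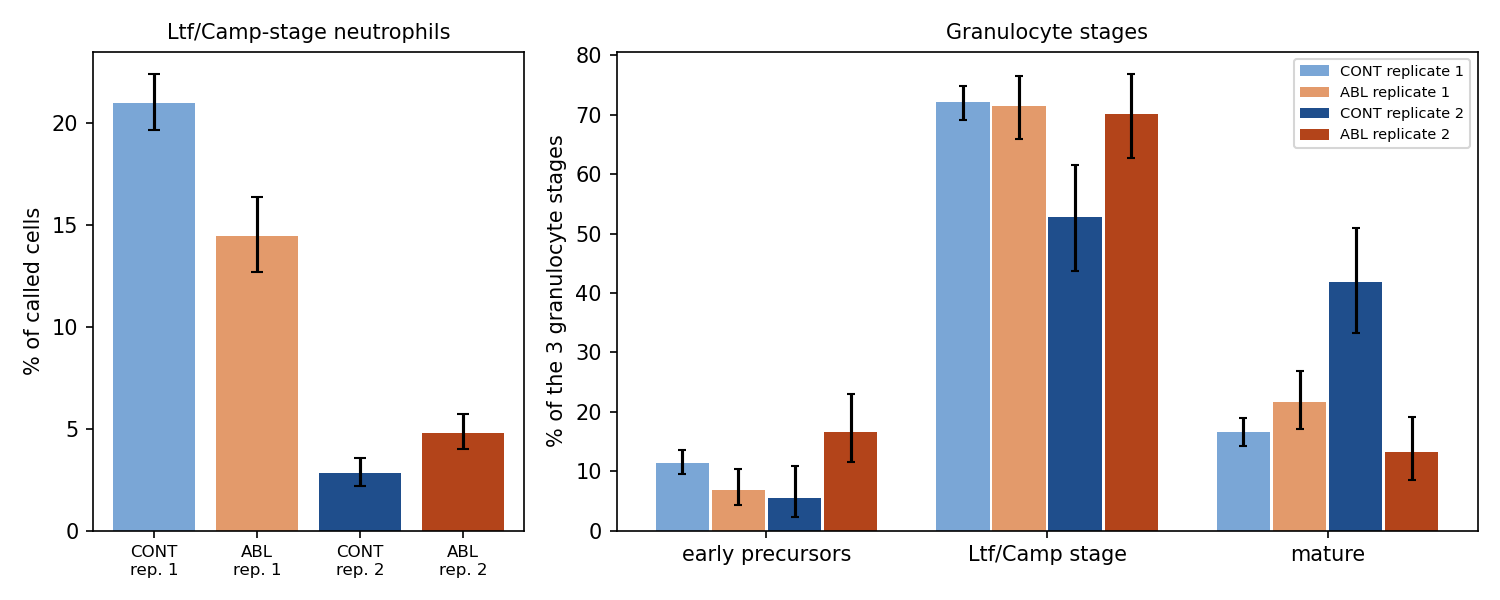
Left, Ltf/Camp-stage neutrophils as a percentage of called cells in each library; right, early precursors, Ltf/Camp-stage cells and mature neutrophils as percentages of the 3 stages together. Bars give 1 library each and error bars exact 95% binomial intervals (counting error only). Members ran from 2.84% to 21.0% of called cells but from 52.7% to 72.1% of granulocytes.

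A check of the libraries set ABL2 apart. Xist, the RNA of the inactive X chromosome of female cells, was found in 31.8% of members of CONT1, 50.5% in ABL1 and 58.8% in CONT2, but in 0 of the 122 members of ABL2, which allows a share of up to 2.46% by 3 counts and 2.98% by the exact 95% limit. Y-linked transcripts were found in 18.9%, 4.81%, 26.5% and 50% of members in CONT1, ABL1, CONT2 and ABL2. Members of CONT2 thus held transcripts of both sexes and those of ABL2 showed no sign of female cells. The libraries of replicate 2 therefore did not hold cells of the same animals in the same proportions. These shares were not set against the free RNA of each library. Members with both Xist and a Y-linked transcript numbered 27, 5, 1 and 0, against 136, 10, 18 and 61 members with a Y-linked transcript. In replicate 1 the exact 95% intervals of CONT1 and ABL1 did not overlap either, for Xist (28.4 to 35.3 and 43.5 to 57.5) or for Y-linked transcripts (16.1 to 22 and 2.33 to 8.66). Femur and animal cannot be told apart in either replicate. No member barcode was shared between libraries, and 5 called barcodes were shared between the libraries of replicate 1 and 1 between those of replicate 2.

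The members carried the transcripts of the labelled stage. Ly6g, the gene of the surface antigen that marks mouse neutrophils and a marker that the rule did not use, stood at 890, 870, 554 and 512 CPM in the members. It was at 13.3, 13.4, 0 and 0 in early precursors and at 274, 155, 20.7 and 12.8 in empty droplets (barcodes with 1 to 300 UMIs, which show the free RNA of each library). Ly6g was thus higher in members than in the free RNA and in the preceding stage in all 4 libraries.

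UMIs count molecules and were not divided by transcript length. Camp stood at 50559, 47680, 43529 and 50548 CPM and Ngp at 48695, 51642, 35585 and 34361, so that Camp led in 3 libraries and Ngp in ABL1. Ltf stood at 8555, 8640, 10007 and 7780. As genes that set membership they are given as description, and their medians per cell, 11.2%, 11.1%, 9.12% and 9.72% of UMIs together, lay far above the threshold. Still, S100a8 and S100a9, the subunits of calprotectin that all later neutrophil stages share, were more abundant, at 216355 and 134075 CPM in CONT1 and 183624 and 196809 in ABL2. Lcn2, the iron-sequestering lipocalin of secondary granules, held 10686, 12326, 15123 and 13520 CPM. Chil3, a chitinase-like lectin, held 5284, 6034, 9602 and 8556, with both values of replicate 2 above both of replicate 1. Among the 20 most abundant transcripts were also Tmsb4x, Lyz2, Retnlg, Wfdc21, Anxa1, Pglyrp1, Pfn1 and S100a11. The red-cell genes Hbb-bs and Hba-a1 were among them too, at 15250 and 10904 CPM in CONT1 but at 78.0 and 35.8 in CONT2.

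Cells just inside and just outside the threshold were alike. In CONT1, the 21 cells nearest above the threshold had a median Ltf, Camp and Ngp share of 1.11% and the 32 nearest below it 0.896%, and S100a8 and S100a9 made up a median of 40.9% and 37.3% of their UMIs. Retnlg, a resistin-like cytokine of late neutrophils, made up 6.36% and 6.19%. The other libraries had 4, 2 and 3 cells just inside and 7, 0 and 5 just outside. Cells thus lay on both sides of the threshold in 3 libraries, with like levels of late genes. The free RNA lay above the threshold in replicate 1 and below it in replicate 2, since Ltf, Camp and Ngp made up 2.68% and 1.71% (CONT1 and ABL1) and 0.303% and 0.203% (CONT2 and ABL2) of the UMIs in empty droplets. Reticular cells, which should lack these genes, held a median share of 0.226%, 0.123%, 0% and 0%. Of the 1175, 389, 1916 and 292 reticular cells, 15, 9, 8 and 0 held at least 1%, and the limit on Adipoq kept them out of the members.

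Within the stage, 2 opposite gene programs were graded along the Ltf, Camp and Ngp share. Members were split at 5% and 10% of UMIs, and since the split used those genes and all values come from the same cells, what follows is description without a test. Fcnb, a ficolin of immature granulocytes, was at 424, 290, 1000 and 564 CPM in members at 10% or more. In members at 1 to 5% it was at 10.6, 12.4, 0 and 0. Chil3 went from 7077, 8008, 12560 and 11279 to 577, 626, 1441 and 715 between the same bands. Cebpe, which encodes C/EBPε, went from 489, 505, 477 and 463 to 76.3, 91.1, 111 and 86.3. All 3 genes were lower in the 1 to 5% band in each of the 4 libraries.

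The opposite grade was held by genes of late granules and of release. Mmp8, the neutrophil collagenase, stood at 398, 409, 169 and 298 CPM in members at 10% or more, and at 1590, 2179, 4558 and 2952 in members at 1 to 5%. Mmp9, the gelatinase that names the gelatinase granule, went from 430, 448, 385 and 410 to 1317, 1835, 2646 and 2170. Retnlg went from 4977, 4370, 1214 and 2048 to 45695, 45337, 32214 and 32058. Cxcr2 went from 37.4, 58.9, 87.1 and 74.3 to 200, 244, 1284 and 623. Each of these was higher in the low band in every library, and the Retnlg level of that band was close to that of mature neutrophils (49716, 50093, 31447 and 32574 CPM). At least 1% of UMIs were Retnlg in 94.0%, 100%, 100% and 90.9% of cells of the low band, against 20%, 20.7%, 4.35% and 5.26% at 10% or more. Ly6g, by contrast, differed less along the stage, with 921, 900, 472 and 487 in the high band and 783, 882, 668 and 487 in the low band. The same held for the granule gene Cd177, with 948, 959, 1190 and 862 in the high band and 751, 998, 1054 and 789 in the low band.

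**Figure D2:**
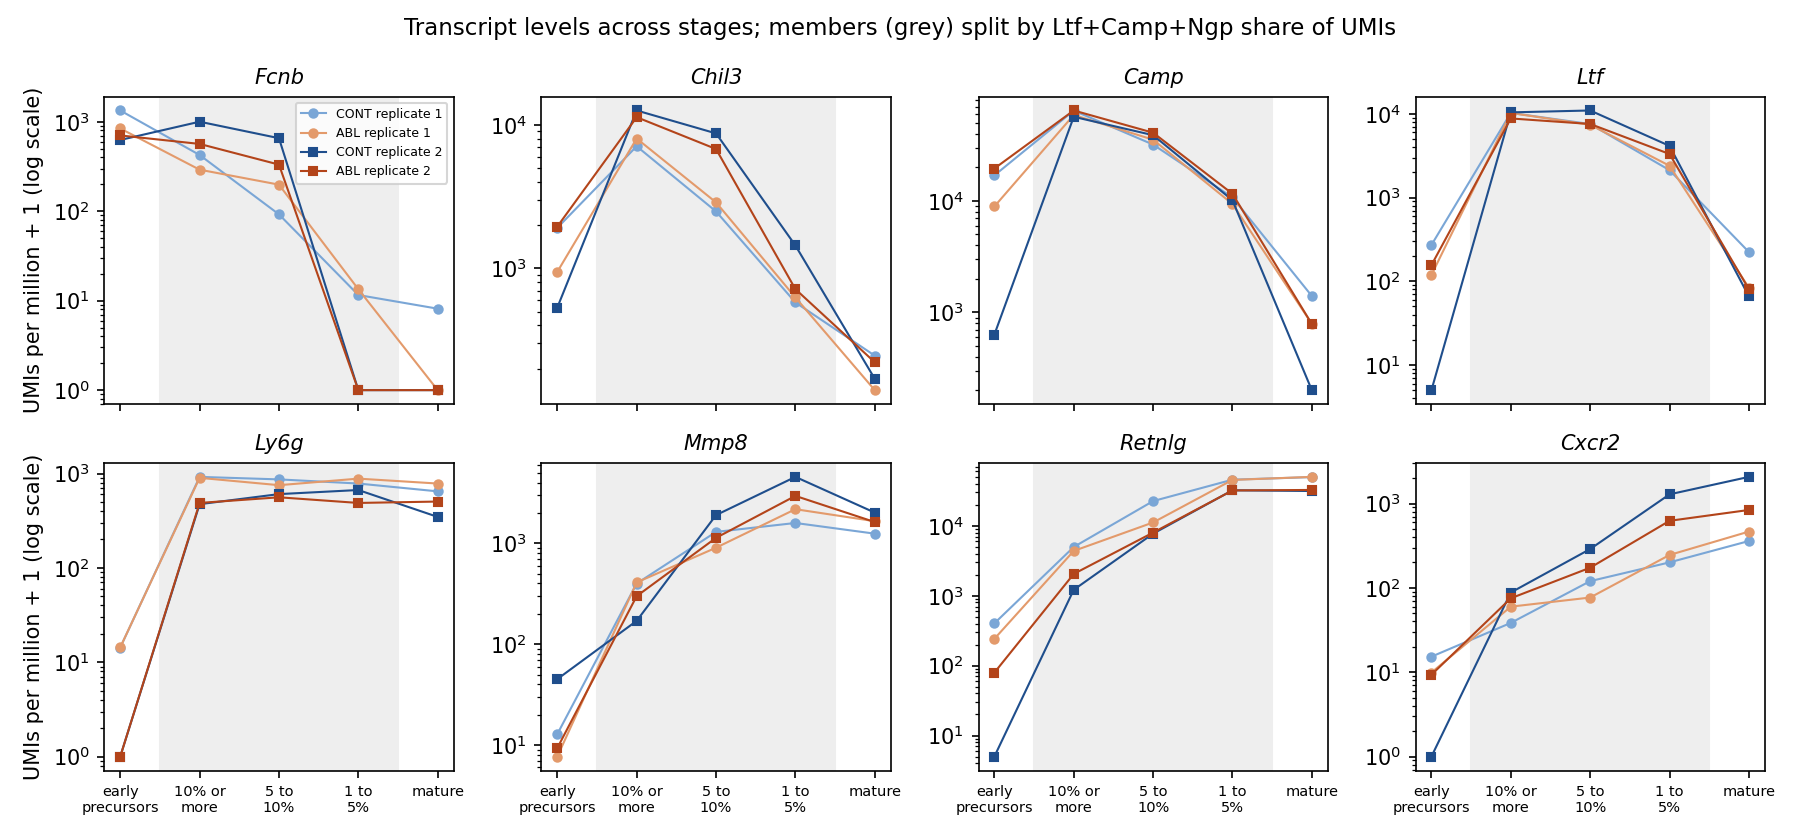
Levels of 8 genes (CPM + 1, log axis) from early precursors through the members, split by their Ltf, Camp and Ngp share and shaded grey, to mature neutrophils. Each line is 1 library. Fcnb and Chil3 fall across the grey bands, Mmp8, Retnlg and Cxcr2 rise, and Ly6g stays level.

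The granule genes of the rule differed in level between stages. Early precursors held 16930, 8911, 632 and 19510 CPM of Camp, yet 270, 118, 4.0 and 155 of Ltf. Ngp lay between them, at 10141, 4708, 56.0 and 5927. Camp stood above Ltf in the members too, so these levels give no order of onset, and CONT2 had only 7 early precursors. Across the members of 1 library, the shares of Camp and Ngp per cell correlated with Spearman's rho between 0.68 and 0.74, and those of Camp and Ltf with rho between 0.21 and 0.55. Camp and Retnlg correlated negatively, with rho between -0.84 and -0.70. These values are over 718, 208, 68 and 122 cells that share a library and the sum that chose them.

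Part of the members held mitotic transcripts. After every cell was thinned to 2000 UMIs, 15.6% of members in CONT1 (112 of 718, exact 95% binomial interval 13 to 18.5) held at least 3 UMIs of 18 G2/M genes such as Mki67, Top2a and Cdk1, and are called cycling here. The share was 16.8% in ABL1 (12 to 22.6), 27.9% in CONT2 (17.7 to 40.1) and 28.7% in ABL2 (20.9 to 37.6). The intervals of ABL and CONT overlapped in both replicates, and the 2 replicates, which differ in chemistry, lay further apart. Before thinning the share was 33.3%, 30.3%, 42.6% and 41.8%. Early precursors stood higher, at 52.2%, 80.0%, 71.4% and 75.9%, and mature neutrophils lower, at 7.27%, 4.76%, 3.70% and 4.35%. Reticular cells held 2.30%, 1.03%, 0.365% and 1.03%, which is the level in a stromal cell type of the same libraries.

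Mitotic transcripts were concentrated in the members with most Ltf, Camp and Ngp. At 10% or more, 23.2%, 23.1%, 52.2% and 40.4% of cells passed the G2/M threshold, and at 1 to 5% only 5.39%, 2.00%, 0% and 0%, where 0 of 13 and 0 of 22 cells leave wide intervals (up to 24.7% and 15.4%). Cycling members held more UMIs, with a median of 13111.5 against 5902.5 in the rest of CONT1 and 17254 against 8062 in ABL2. They also held more Fcnb and less Ly6g and Mmp8. Fcnb stood at 625 CPM in cycling and 186 in the other members of CONT1, 511 and 115 in ABL1, 1382 and 155 in CONT2, and 726 and 192 in ABL2. Ly6g was lower in cycling members in all 4 libraries, at 467 against 1043, 380 against 1082, 219 against 854 and 283 against 684. Mmp8 was lower as well, at 124 against 958, 113 against 1018, 22.3 against 2697 and 43.2 against 1511. Members that passed both the G2/M threshold and a Retnlg share of 1% were rare, with 5, 4 and 2 such cells from the lowest to the highest band of CONT1, 1 in ABL1, 0 in CONT2 and 1 in ABL2.

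**Figure D3:**
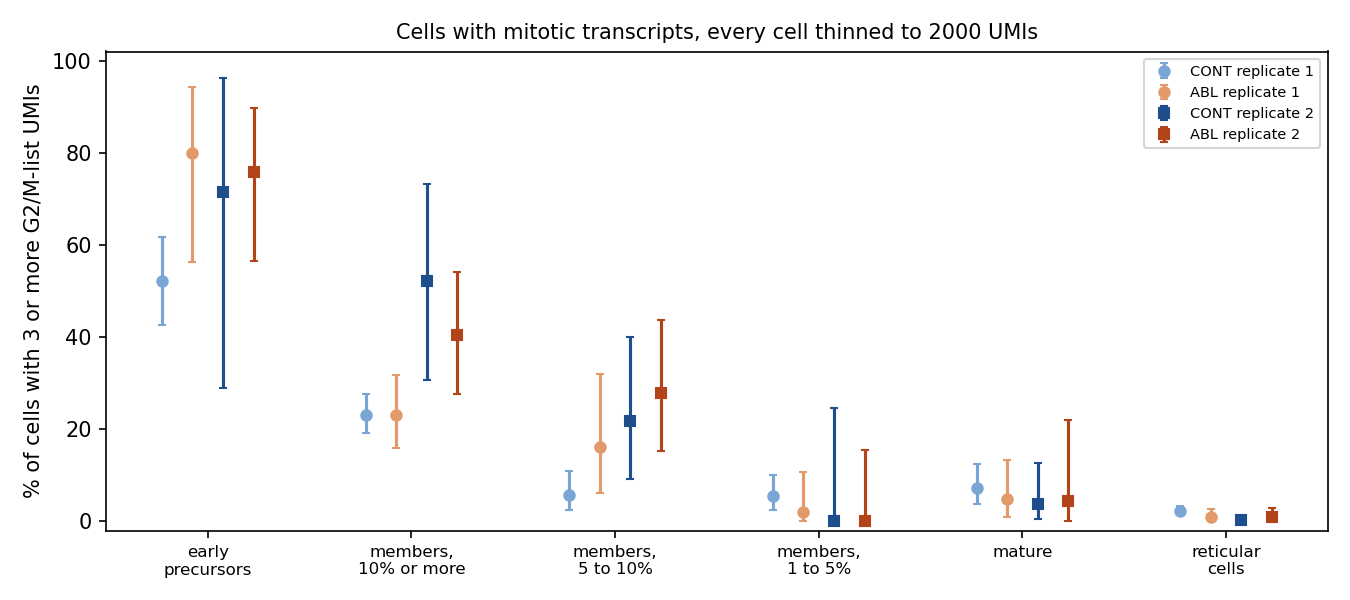
Percentage of cells with at least 3 UMIs of the G2/M list after thinning to 2000 UMIs, for early precursors, 3 bands of members, mature neutrophils and reticular cells. Points are libraries and error bars exact 95% binomial intervals. The share in members fell from 23.1 to 52.2% at 10% or more of Ltf, Camp and Ngp to 0 to 5.39% at 1 to 5%.

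To ask whether members of the ablated femur differed in expression, UMIs were summed over the members of each library and ABL was compared with CONT by edgeR's quasi-likelihood test with the replicate as a block and Benjamini-Hochberg adjustment. Of 6833 genes tested, 46 passed an adjusted p of 0.05 (0.673%), 36 of them higher in ABL (0.527%) and 10 lower (0.146%). At an unadjusted p under 0.05 there were 364 genes (5.33%). The median log2 fold change over all genes was -0.0031. Of the granulocyte lists described next, Stfa1 alone was among the 46. When the block was dropped, edgeR called 0 genes (0.0%), with 59 under an unadjusted 0.05, and DESeq2 with the block called 13 (0.19%). Without CONT1 or without CONT2, also with no block, edgeR called 0.

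Secondary-granule genes showed no difference that passed the test. Of the 6 tested members of the list that did not set membership, 0 were higher and 0 lower, with a median log2 fold change of -0.09. Lcn2 was at log2 0.06 ± 0.31 (SE), Chil3 at 0.05 ± 0.30 and Cd177 at -0.16 ± 0.30. The 95% intervals ran from -0.59 to 0.72 for Lcn2 and from -0.60 to 0.70 for Chil3. Fcnb, which was highest in members at 10% or more, was at -0.55 ± 0.29, with 303 and 235 CPM in CONT1 and ABL1 and 734 and 421 in CONT2 and ABL2. Its interval ran from -1.16 to 0.07. Of 3 tested primary-granule genes outside the rule, Ctsg, Ms4a3 and Prss57, none passed, and Ms4a3, a receptor-like gene of granulocyte-monocyte progenitors, was at 89.4, 97.7, 89.2 and 85.2 CPM.

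Late genes, apart from 1 cystatin, did not pass the test either. The 10 tested features of the gelatinase granule and secretory vesicle list held 0 calls and a median of -0.24. Mmp8 was at 737 and 744 CPM in CONT1 and ABL1 and at 1433 and 880 in CONT2 and ABL2 (log2 -0.31 ± 0.30), so that the groups overlapped. Of 16 mature-neutrophil genes, 1 was higher and 0 were lower. The one was Stfa1, a stefin that inhibits cysteine proteases, at 30.4 and 125 CPM in CONT1 and ABL1 and 0 and 4.12 in CONT2 and ABL2 (log2 2.05 ± 0.39, adjusted p = 0.0196 by edgeR). It was higher in ABL within both replicates but lay lower in ABL2 than in CONT1, and 0 UMIs in CONT2 allow up to 2.11 CPM. It also passed with free RNA subtracted (log2 2.15, adjusted p = 0.00746 by edgeR), without TMM, without the filter, at thresholds of 0.5% and 2%, with no UMI minimum, with doublets removed and after thinning. It did not pass with DESeq2, with no block (with all libraries or with any 1 left out), among members under 1% globin UMIs or among members without 3 G2/M UMIs. Its paralogs Stfa2 (18, 15.9, 9.84 and 2.06 CPM) and Stfa3 (18.5, 21.6, 7.03 and 0.687) did not pass, and reads of these near-identical genes may be split between them. Retnlg stood at 14271, 11259, 7515 and 7431 CPM, with log2 -0.14 ± 0.32.

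The same was found for the machinery that neutrophils use and for the factors that build them. NADPH oxidase genes, which make superoxide, held 0 calls among 6, with a median of -0.02, and Cybb, the catalytic subunit, was at 663, 715, 1888 and 1425 CPM. Granulopoiesis transcription factors held 0 calls among 7 tested, with a median of 0.02. Cebpe was at 376 and 415 CPM in CONT1 and ABL1 and at 364 and 383 in CONT2 and ABL2, and its log2 fold change was 0.14 ± 0.29 with a 95% interval of -0.48 to 0.76. The receptors of retention and release held 0 calls among 7. Cxcr4, the CXCL12 receptor, was at 97.3, 108, 119 and 107 CPM (0.03 ± 0.27) and Cxcr2 at 76.4, 87.5, 307 and 169 (-0.30 ± 0.29). Cxcr2 was thus higher in both libraries of replicate 2, and neither receptor passed the test.

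Genes of division, inflammation and interferon response followed. The S-phase list held 0 calls among 14 tested genes and the G2/M list 0 among 18, with medians of -0.17 and -0.11. The lowest adjusted p of the G2/M list was that of Mki67 (0.604 by edgeR), which was at 53.2 and 42.6 CPM in CONT1 and ABL1 and at 464 and 185 in CONT2 and ABL2. Of 12 inflammatory genes 0 passed, with a median of -0.31. Ccl4, a chemokine, came nearest at 12.6, 7.38, 68.2 and 0.687 CPM (log2 -2.71 ± 0.67, adjusted p = 0.101 by edgeR), and it passed as lower without TMM, without the filter on low counts and at thresholds of 0.5% and 2%. Il1b, the cytokine interleukin 1 beta, was at 130, 94.9, 145 and 86.6 CPM, lower in ABL in both replicates with log2 -0.56 ± 0.27 and an adjusted p of 0.996 by edgeR. Of 9 interferon-stimulated genes tested 0 passed, and the median was -0.12. Rsad2, the antiviral viperin, came nearest with 7.02, 1.70, 14.1 and 2.06 CPM (adjusted p = 0.0946 by edgeR), and passed as lower without TMM, without the filter and at the 2% threshold. Lists for immediate early and heat shock genes, STAT3 response, glycolysis and hypoxia, major histocompatibility complex class I, S100 proteins, cyclin-dependent kinase inhibitors and ribosomal proteins also held 0 calls. The 79 ribosomal protein genes had a median of 0.27, with 0.53 in replicate 2 and -0.07 in replicate 1.

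**Figure D4:**
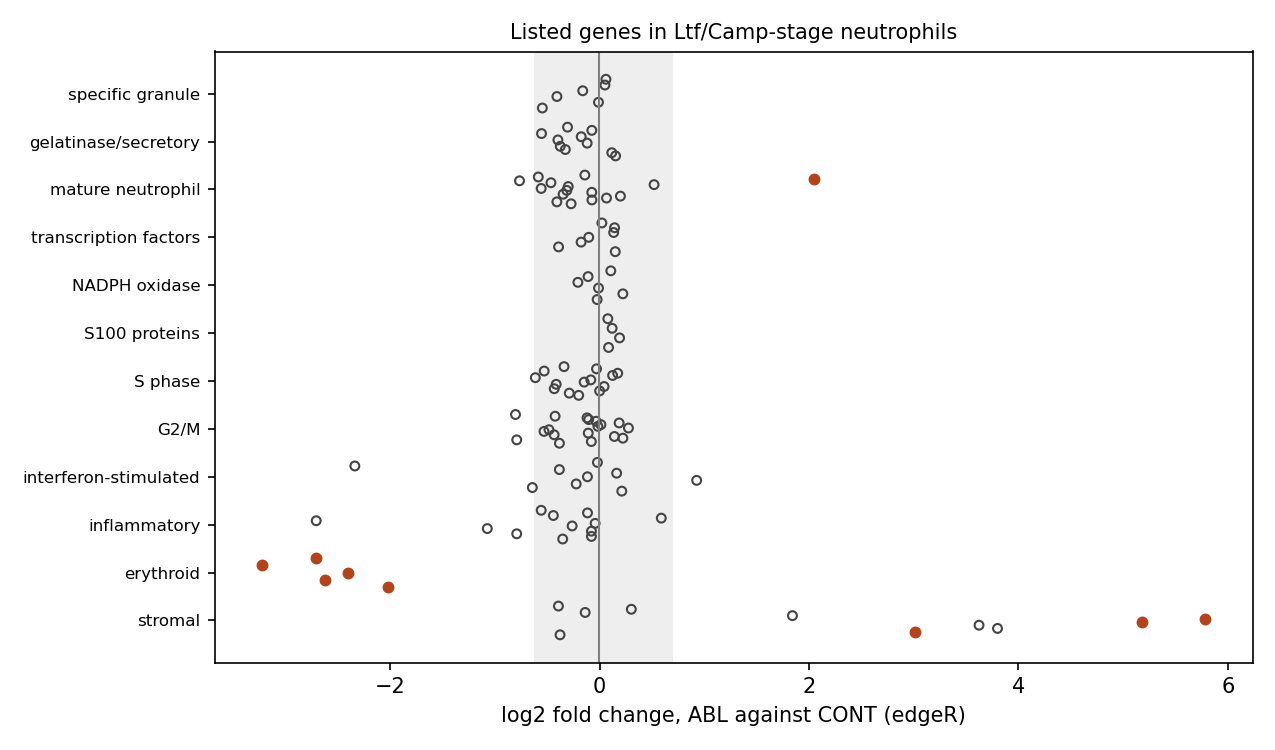
Log2 fold change of ABL against CONT in Ltf/Camp-stage neutrophils for genes of 12 lists, 1 point per gene; filled points passed an adjusted p of 0.05 (edgeR). The grey band spans the 5th to 95th percentile of all 6833 genes (-0.62 to 0.70) and the line their median. Calls lie in the erythroid and stromal lists, apart from Stfa1 in the mature-neutrophil list.

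Of the 36 higher genes, 8 came under the rule for named genes. Col1a1, a chain of type I collagen, was at 37.8 and 525 CPM in CONT1 and ABL1 and at 2.81 and 2013 in CONT2 and ABL2 (log2 5.78 ± 0.90, adjusted p = 0.00618 by edgeR). Col1a2, its partner chain, was at 51.1 and 442, and at 2.81 and 1469 (5.18 ± 0.91). Spp1, which encodes the matrix protein osteopontin, was at 23.7 and 182, and at 14.8 and 126 (3.01 ± 0.31, adjusted p = 0.00041). These 3 genes were higher in both ABL libraries than in either CONT library. The same was true of Fn1, fibronectin, at 14.4 and 72.1, and at 0.703 and 203 (3.70 ± 0.66), of the osteoblast hormone gene Bglap at 13.5 and 106, and at 0 and 135, and of the bone sialoprotein gene Ibsp at 51.6 and 157, and at 19.0 and 445. Col6a1 was at 24.5 and 71.0, and at 2.81 and 107. Mmp13, a collagenase of bone and cartilage, was at 43.9 and 189, and at 6.32 and 12.4, so that its ABL value in replicate 2 lay below the CONT value in replicate 1. In a fit with neither ABL1 nor the block its change was -1.30, and within replicate 2 alone it was 0.87. Of these 8 genes, Spp1 alone also passed with DESeq2, among members under 1% globin UMIs and among members without 3 G2/M UMIs. Col1a1 had an adjusted p of 0.227 with DESeq2, and of 0.086 and 0.0711 by edgeR in those members, with log2 fold changes of 6.59, 5.78 and 6.01. Ibsp, Col6a1 and Mmp13 did not pass with no UMI minimum, and Ibsp and Mmp13 did not pass after thinning. Ibsp also lost its call with doublets removed (adjusted p = 0.0753 by edgeR). In the stromal marker list 3 of 10 tested genes outside the rule were higher and 0 lower, with a median of 2.43. Summed over the list, members held 784, 2225, 172 and 5268 CPM, with Col1a1 the most abundant gene in both ABL libraries and Cxcl12 in both CONT libraries, and with Adipoq at 0 in ABL2.

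Most of these genes moved in the free RNA of the same libraries as in the members. Col1a1 in empty droplets was at 396 and 5289 CPM in CONT1 and ABL1 and at 353 and 11623 in CONT2 and ABL2. Spp1 was at 193 and 2951, and at 396 and 2201. Of the 36 higher genes, 35 were below their empty-droplet level in the members of all 4 libraries (97.2%, against 54.5% of all genes tested), and 32 were higher in the empty droplets of ABL in both replicates (88.9%, against 36.5% of all genes tested moving there in the direction of their fit). The 4 that did not were Ibsp, Mmp13, Tnc and Stfa1. In the empty droplets of replicate 2, Ibsp went from 3742 CPM in CONT2 to 2462 in ABL2, Mmp13 from 970 to 709 and Tnc, named here after its values were seen, from 551 to 475. Stfa1, at 10.8, 10.3, 1.79 and 0.96 CPM in empty droplets, was the 1 gene of the 36 not below that level in all 4 libraries. Subtracting the empty-droplet profile left 20 calls (0.329%), 4 higher and 16 lower, of which 9 were among the 46, 8 of them with the same sign. The profile was scaled to the summed stromal list, which holds Col1a1, Col1a2 and Spp1, so what remains of these depends on that scaling. Col1a1 (log2 4.54), Col1a2 (5.46) and Ibsp (10.2) still passed as higher, and Spp1 passed with the opposite sign (-7.62). Of the 14 named genes 6 kept enough counts to be tested after subtraction, and Bglap, Fn1, Col6a1, Mmp13 and the 4 globin genes did not.

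**Figure D5:**
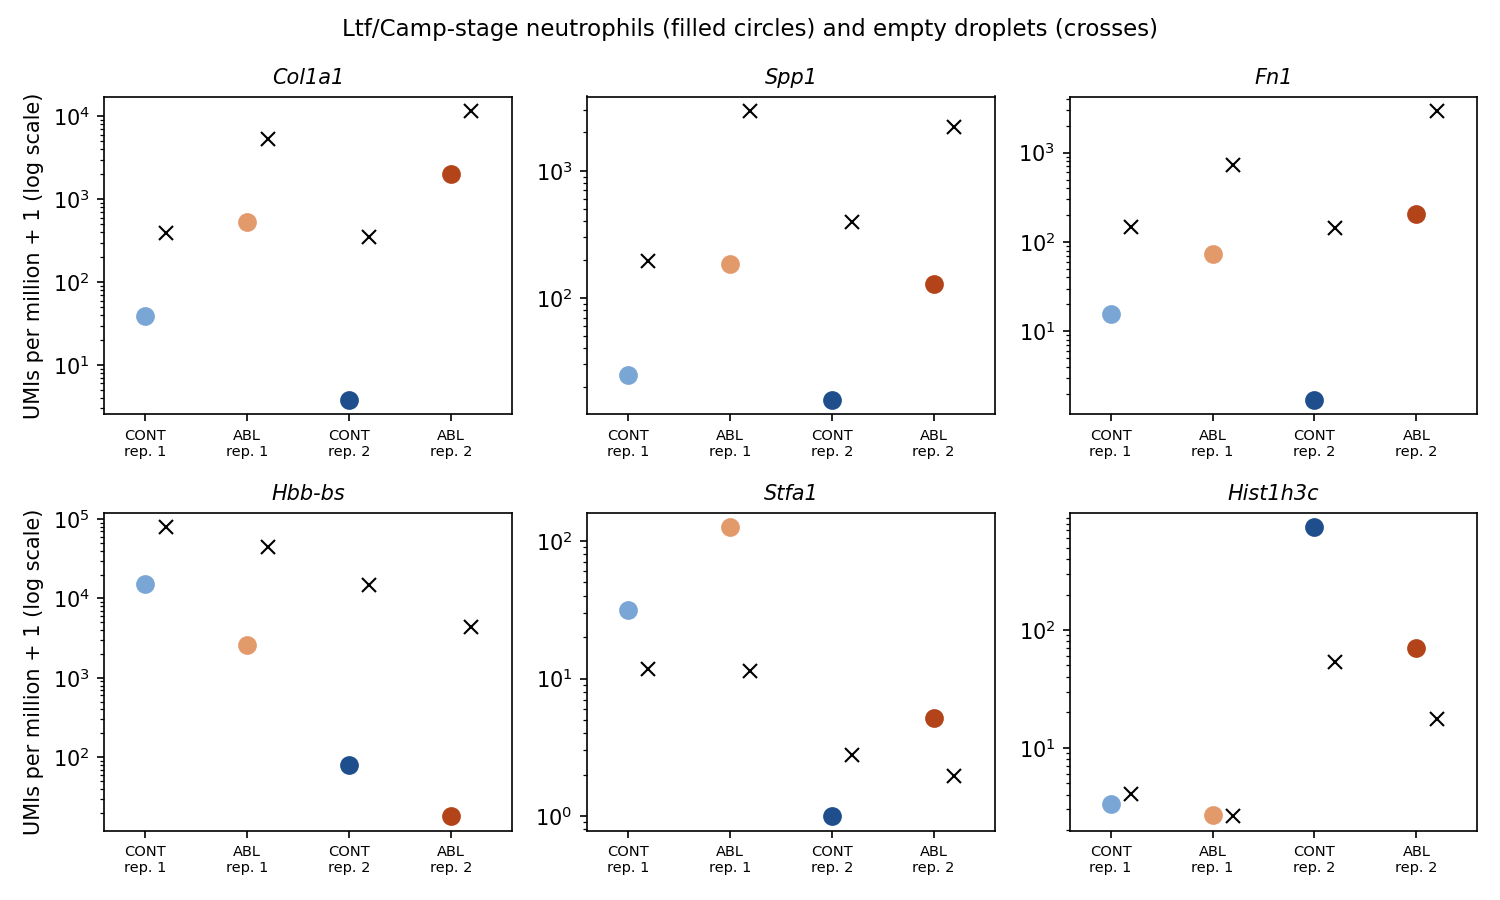
Levels of 6 genes (CPM + 1, log axis) in the members (filled circles) and in the empty droplets (crosses) of each library. Col1a1, Spp1, Fn1 and Hbb-bs lie below the empty-droplet level in all 4 libraries, and Stfa1 lies above it in 3.

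The 10 lower genes were mainly those of red cells and of histones. Hbb-bs, an adult beta globin, was at 15250 and 2570 CPM in CONT1 and ABL1 and at 78.0 and 17.2 in CONT2 and ABL2 (log2 -2.40 ± 0.36, adjusted p = 0.00501 by edgeR). Hba-a1 was at 10904 and 1239, and at 35.8 and 9.62. Hba-a2 (-3.22 ± 0.40) and Hbb-bt (-2.62 ± 0.38) fell alongside them, and Alas2, the first enzyme of heme synthesis in red cells, made the erythroid list 5 of 5 lower with a median of -2.62. The 4 globin genes were lower in ABL within both replicates, but both libraries of replicate 2 lay below both of replicate 1. In a fit with neither CONT1 nor the block all 4 turned positive, from 3.75 for Hbb-bt to 4.52 for Hba-a1. Alas2 (adjusted p = 0.0478 by edgeR) had 0 UMIs in both libraries of replicate 2. It was not called with DESeq2, without TMM, with no UMI minimum, with doublets removed or after thinning. The free RNA moved alongside, and its part in the result was not tested, with an erythroid list sum of 150410 and 85057 CPM in empty droplets of CONT and ABL in replicate 1 and of 29565 and 8568 in replicate 2. Among members under 1% globin UMIs, a filter that itself limits these genes, 6 genes passed (0.0877%) and the globin genes were at -1.06 to -1.22.

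The histone genes were highest in 1 library. Hist1h3c, which encodes a histone H3 made in S phase, was at 2.34 and 1.70 CPM in CONT1 and ABL1 and at 745 and 69.4 in CONT2 and ABL2 (log2 -2.86). Hist1h2ab, a histone H2A gene, was at 2.88 and 2.27, and at 391 and 62.5 (-2.10). Both were thus nearly absent on v2 chemistry and high in CONT2. In a fit with neither CONT2 nor the block their changes turned positive (3.63 and 3.20), while within replicate 1 alone they were -0.30 and -0.25. They lay above the empty-droplet level in replicate 2, where Hist1h3c was at 52.3 and 16.6. Vpreb1, the surrogate light chain gene of B-cell precursors, named here after its values were seen, was at 22.8 and 2.27, and at 16.9 and 0 CPM.

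Markers of the remaining cell types were also measured in the members. Monocyte and macrophage markers summed to 1227, 1369, 743 and 850 CPM, of which Ly6c2, also transcribed in immature neutrophils, made up 1192, 1268, 736 and 765. The complement genes C1qa, C1qb and C1qc were at 2.52, 1.44 and 0.899 CPM in CONT1, at 9.66, 15.3 and 15.3 in ABL1, at 0 in CONT2, and at 0, 1.37 and 0.687 in ABL2. Of the list 4 genes were tested and 0 passed, with a median log2 fold change of 1.30. Without the filter on low counts C1qb (3.20), C1qc (3.78), Ms4a6c (2.18) and F13a1 (1.86) passed as higher in ABL. Ms4a6c, at 10.8, 26.1, 0 and 33.0 CPM (adjusted p = 0.174 by edgeR), also passed without TMM, at thresholds of 0.5% and 2% and with doublets removed. B-lineage markers summed to 79.5, 34.6, 63.9 and 35.0, with 0 of 4 tested genes passing, and Vpreb3 (adjusted p = 0.0619 by edgeR) passed as lower without TMM, without the filter, at both other thresholds and with free RNA subtracted. Megakaryocyte, endothelial and eosinophil or basophil markers held too few UMIs for any gene to be tested, with sums of at most 11.9, 45.3 and 9.53. Doublet calling marked 17, 3, 0 and 4 of the members, and without them 51 genes passed (0.765%). The call rates over all cells, 2.25%, 1.11%, 0.0834% and 0.984%, were low, so that doublets may remain.

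To ask whether members responded to ablation otherwise than the next stage, the effect in members was set against that in mature neutrophils in 1 model with the library as a block. Of 6914 genes, 0 passed an adjusted p of 0.05 (0.0%) by edgeR, and 131 had an unadjusted p under 0.05. DESeq2 also called 0, with 34 at an unadjusted p under 0.05. Col1a1 differed between the stages by log2 -0.43 ± 0.80 and Spp1 by 0.16 ± 0.68. Mature neutrophils held 81.3, 691, 2.60 and 11790 CPM of Col1a1, the last from 23 cells, higher in ABL within both replicates. Stfa1 had the opposite direction in mature neutrophils, at 227, 74.5, 219 and 56.6 CPM, and the difference of the 2 effects was 3.62 ± 1.33 (unadjusted p = 0.0155, adjusted p = 1 by edgeR). It did not pass, and mature neutrophils numbered 23 to 165 per library.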

How the data were processed

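Sorted femoral marrow cells of 4 libraries (CONT and ABL, 2 biological replicates each) were measured by droplet single-cell RNA sequencing. The deposited values were UMI counts per gene and barcode, which the authors made with Cell Ranger on mm10 with 8 added transgene features; the submitters' processing notes also name Seurat, and versions are not given in the sources used here. Of 28006 features, all counts were used as deposited.

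Called cells had at least 500 genes, at most 20% mitochondrial UMIs and at least 2700 UMIs in replicate 1, and at least 1000 genes, at most 15% and at least 4000 UMIs in replicate 2. Members and gene lists were chosen with earlier results of these data known. UMIs were summed per library and class, filtered with filterByExpr, scaled by TMM and tested with edgeR 4.0.16 (R 4.3.3) with replicate and condition as terms, adjusted by Benjamini-Hochberg at 0.05. The design leaves 1 residual degree of freedom, so the spread was estimated across genes. The replicate number is shared by the labels of both conditions, and the paired femurs of the study are the source of the block, although sex-linked transcripts differed between the paired libraries, so that the pairing by animal does not hold for their members in full; deviations of same-numbered libraries correlated at 0.687, which is equal for both pairs by construction and includes the chemistry. Replicate 1 was pooled from several mice, and p-values measure the spread between these libraries. DESeq2 1.42.0 was an alternative. Shares carry exact Clopper-Pearson 95% intervals, and a count of 0 was read as up to 3 counts. Scrublet in scanpy 1.11.5 called doublets, which were kept except in an alternative. The edgeR fit with the block was also tried on simulated counts with known changes and a fixed spread, which does not test the calls made here. Named genes were members of the lists, up to 10 of the largest rises and falls past the threshold with at least 50 CPM on average and the same direction in both replicates, and the 20 most abundant transcripts. Of the listed genes, 3 were not matched.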

Additional observations from a re-analysis of the deposited data

Results flagged for a closer look

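The transcript of the tdTomato reporter, a feature added to the genome and not described above, was at 280 CPM in the members of ABL replicate 2, against 14.1 in CONT replicate 2, and it is given here because it lay above the control in data outside the main measurement. In replicate 1 it was at 54.3 in CONT and 63.0 in ABL. In the test of ABL against CONT it did not pass (log2 2.05 ± 0.70, adjusted p = 0.462 by edgeR), and it passed as higher without TMM, without the filter on low counts and at the 0.5% threshold. The other granulocyte stages of replicate 2 were higher in ABL as well, with 28.6 in CONT and 815 in ABL for mature neutrophils and 28.0 and 163 for early precursors. In replicate 1 these stages were lower in ABL, with 181 in CONT and 87.0 in ABL for mature neutrophils and 36.0 and 26.7 for early precursors. Reticular cells, which the reporter marks, held 1951, 1588, 1103 and 1143 CPM in CONT replicate 1, ABL replicate 1, CONT replicate 2 and ABL replicate 2, and empty droplets held 447, 536, 923 and 886, above the members in all 4 libraries. After thinning to 2000 UMIs, 9.75%, 9.62%, 4.41% and 30.3% of members held a reporter UMI, against 92.9%, 91.0%, 79.0% and 83.6% of reticular cells. The stromal list in the members stood at 784, 2225, 172 and 5268 CPM. Reporter UMIs per UMI of that list were 0.0693, 0.0283, 0.0816 and 0.0531, lower in ABL in both replicates. The part of free RNA in the level of ABL replicate 2 was not tested.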

How the results depend on the processing

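The 46 genes called between ABL and CONT depended on the processing. Without the replicate block 0 passed with edgeR, DESeq2 called 13, no TMM scaling 113, no filter on low counts 165, a member threshold of 0.5% 123 and of 2% 71. Subtracting free RNA left 20 and thinning to 2000 UMIs 21. Chosen after seeing the data, members under 1% globin UMIs gave 6 and members without 3 G2/M UMIs 11. No UMI minimum gave 34 and removing doublets 51. Leaving out 1 library, without the block, gave 0 to 64 calls, with 0 without CONT replicate 1 or CONT replicate 2, 64 without ABL replicate 1 and 11 without ABL replicate 2. Of 14 named genes, 14 kept direction and call without TMM scaling, without the filter and at both thresholds. The call was lost by 14 without the block, by 9 with DESeq2, by 13 among members under 1% globin UMIs and by 7 of 12 among members without 3 G2/M UMIs. With no UMI minimum 3 lost it (Ibsp, Col6a1 and Mmp13), and with doublets removed 1 (Ibsp). After thinning 3 of 13 did so (Ibsp, Mmp13 and Hist1h2ab). Folds stayed close without the block (Col1a1 5.70, Spp1 2.96) and, apart from the globin genes, under 1% globin (Bglap 3.98, Fn1 3.75). At the 2% threshold, which kept 113 of the 122 members of ABL replicate 2, every named higher gene had a smaller fold. Ibsp went from 2.95 to 1.30, Bglap from 3.93 to 2.82, Col1a2 from 5.18 to 3.89 and Col1a1 from 5.78 to 4.47. The sign turned for Spp1 with free RNA subtracted (-7.62) and, with a library and the block left out together, for Mmp13 without ABL replicate 1 (-1.30), for Hba-a2 (4.25), Hba-a1 (4.52), Hbb-bt (3.75) and Hbb-bs (4.45) without CONT replicate 1, and for Hist1h3c (3.63) and Hist1h2ab (3.20) without CONT replicate 2; the cause was not tested. The difference from mature neutrophils gave 2 calls without the filter. The mean difference in share, -2.29 points, became -12.5 over called cells with at most 1 Adipoq UMI and Cxcl12 under 0.5% of UMIs. With that denominator, which leaves out reticular cells but not other stromal cells, the direction in replicate 2 turned. The mean difference over all called cells ran from -6.54 to 1.96 when 1 replicate was left out. The mean cycling share, 22.3%, became 37.0% without thinning and ran from 16.2% to 28.3% with 1 replicate left out. The difference between stages could not be fitted with 1 replicate left out, since no residual degrees of freedom remained. Members numbered 68 in CONT replicate 2, which limits every comparison.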

Other observations

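Cd3d, a gene of the T-cell receptor complex, was at 196, 201, 138 and 115 CPM in the members of CONT replicate 1, ABL replicate 1, CONT replicate 2 and ABL replicate 2. Mature neutrophils held 215, 207, 156 and 175, early precursors 9.36, 6.68, 0 and 6.67, and empty droplets 65.4, 40.8, 8.97 and 10.6. Of the other T and NK cell markers, Cd3e and Klrb1c held at most 0.687 CPM in the members of any library. Cd3d was thus above the free RNA and the preceding stage in all 4 libraries, while Cd3e and Klrb1c were not.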
